A study of Mus musculus with 167 samples.

Results

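Transcripts of 10 genes of hepcidin and systemic iron regulation (Hamp, Hamp2, Bmp6, Id1, Smad7, Tfrc, Tfr2, Slc40a1, Hfe and Trf) were followed in mouse liver during phenobarbital dosing. Each gene was represented by the probe set that the array annotation assigned to it alone and that had the highest mean level over all arrays. Of the 10 genes, 9 had such a probe set and all 9 passed the filter on low values, among 18193 genes with a probe set of their own, of which 12622 were tested. The probe set for Trf, the plasma iron carrier transferrin, was shared with Srprb, and Trf therefore received no value.

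Livers came from male C57BL/6 mice supplied by TaconicArtemis, with 1 Affymetrix array per animal and 167 arrays in all. The labels give an age of 9 to 11 weeks, which the growth text places before dosing, while the treatment text also names a younger starting age. CAR/PXR knockout mice had neither CAR nor PXR, the nuclear receptors encoded by Nr1i3 and Nr1i2, humanized mice carried human CAR/PXR, and wild type mice kept the mouse receptors. In each genotype one arm received phenobarbital, a barbiturate that activates CAR, in the drinking water and the control arm received none. The treatment text gives 0.05% wt/vol for the time course and also lists lower concentrations, described there for a dose response study, and no label of a single animal gives the dose. The dosing days sampled were 1, 7, 14, 28 and 91, and day 119 followed 4 weeks of recovery. The knockout held 28 phenobarbital and 27 control arrays, the humanized line 27 and 29, and the wild type 29 and 27, in 36 groups of 3 to 5 animals. Powdered whole liver was used, so that every value pools all cell types of the organ.

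Hepcidin, the product of Hamp, is a peptide hormone secreted by hepatocytes that binds the iron exporter ferroportin (Slc40a1) and causes its degradation, which lowers iron release into plasma. BMP6 from the sinusoidal endothelium activates SMAD signalling in hepatocytes and raises Hamp together with the SMAD targets Id1 and Smad7, while HFE and transferrin receptor 2 (Tfr2) relay the iron load of transferrin. The mRNA of transferrin receptor 1 (Tfrc), the main cellular importer of transferrin iron, is stabilised by iron regulatory proteins when cellular iron is low.

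The 2 receptor genes matched the genotype labels. Nr1i3 averaged 8.21 in phenobarbital and 8.40 in control wild type livers on the log2 scale of the array, against 4.92 to 5.10 in the 4 arms of the other genotypes. Nr1i2 averaged 7.56 and 7.50 in the wild type arms and 3.55 to 3.73 in the other arms. Cyp2b10, the classical CAR target, averaged 5.67 in phenobarbital and 5.49 in control knockout livers, 12.64 and 7.94 in humanized livers, and 12.99 and 6.48 in wild type livers. The hepatocyte product albumin (Alb) lay between 14.83 and 14.88 in all 6 arms. Phenobarbital animals 6026 and 6030 (humanized, day 119) gave near-identical arrays and entered as 1 mean, so that 166 samples remained. Knockout phenobarbital animals 4019 (day 28) and 4024 (day 91) were also near-identical although their days differ, and both were kept as labelled. In 26 samples the mean of 7 pancreatic acinar transcripts exceeded 7, with a median over all samples of 5.07 and a highest value of 12.56.

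Averaged over the 5 dosing days, phenobarbital lowered Hamp and raised Tfrc in humanized and wild type livers. In the knockout, Hamp did not pass the test and Tfrc rose less than in wild type. Tfr2 fell and Hfe rose slightly in the humanized and wild type lines. Calls required an adjusted p below 0.05 (limma over all tested genes, Benjamini-Hochberg). In the knockout 3 of 9 genes were called (Tfrc and Hfe higher, Slc40a1 lower), against 19.6% of all tested genes. In humanized mice 6 of 9 were called (Hamp2, Tfrc and Hfe higher, Hamp, Bmp6 and Tfr2 lower), against 32.4% of all genes. In wild type mice 7 of 9 were called (Tfrc and Hfe higher, Hamp, Bmp6, Id1, Tfr2 and Slc40a1 lower), against 31.5% of all genes. The median difference of the 9 genes was 0.02 in the knockout, -0.145 in the humanized line and -0.146 in wild type, beside 0.008, -0.002 and -0.013 over all tested genes.

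**Figure D1:**
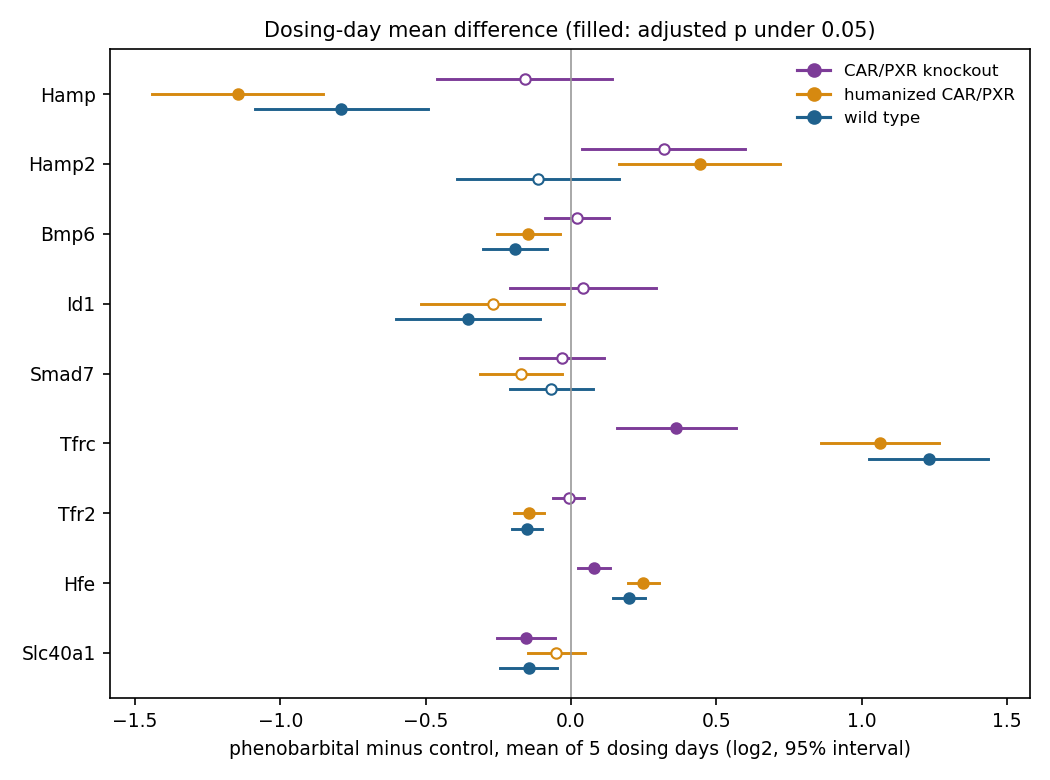
Phenobarbital minus control for the 9 genes, averaged over the 5 dosing days (x axis, log2), in knockout, humanized and wild type livers. Dots are differences, lines are 95% intervals and filled dots passed an adjusted p of 0.05. Hamp lies at -1.15 in humanized and -0.79 in wild type livers, and Tfrc at 1.06 and 1.23.

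Hamp (probe set 1419196_at; GRCm38.p6 chromosome 7, 30942368 to 30944029) was measured well above the array median on all 167 arrays. On dosing days its lowest, median and highest levels were 11.32, 12.36 and 13.18 in 24 phenobarbital knockout livers and 11.78, 12.61 and 13.52 in 22 control knockout livers. In humanized livers they were 9.26, 11.28 and 12.73 with phenobarbital (n = 23) and 11.51, 12.52 and 13.13 without (n = 24). In wild type livers they were 9.59, 11.96 and 12.72 with phenobarbital (n = 24) and 11.40, 12.62 and 13.06 without (n = 22). The lowest levels of Hamp were in phenobarbital livers of the humanized and wild type lines, while the arms overlapped in all 3 lines. The dosing mean fell by 1.15 ± 0.15 (SE) on the log2 scale in humanized mice, a fold of 0.451 (adjusted p = 1.3e-10, limma), and by 0.79 ± 0.15 in wild type mice, a fold of 0.578 (adjusted p = 9.68e-06). In the knockout it was -0.16 ± 0.15 (adjusted p = 0.502, limma). The difference between knockout and wild type effects was 0.63 ± 0.21, with a 95% interval of 0.21 to 1.05 (adjusted p = 0.0332). It lost the call without wild type phenobarbital animal 2013, 2019 or 2007 (adjusted p = 0.0542, 0.0625 and 0.0564). Without the 26 samples with pancreatic transcripts the difference was 0.49 (adjusted p = 0.242).

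**Figure D2:**
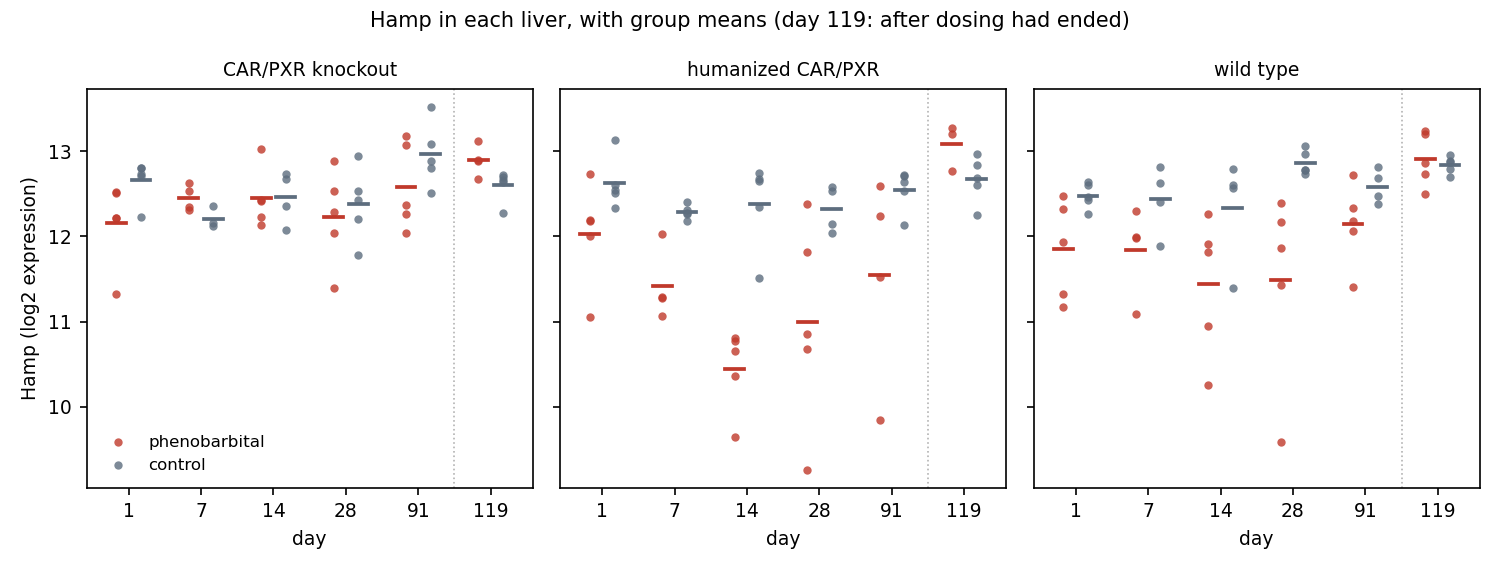
Hamp level (y axis, log2) of every liver by day (x axis) in knockout, humanized and wild type mice; red points are phenobarbital livers, grey points controls, and horizontal bars group means. In humanized mice on day 14 the phenobarbital livers lie at 9.65 to 10.81 and the controls at 11.51 to 12.75. On day 119 the humanized arms overlap, with 2 of 3 phenobarbital-group livers above all controls.

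The separation between arms of Hamp was widest in humanized mice on day 14. There the 5 phenobarbital livers had 10.77, 10.81, 9.65, 10.66 and 10.36, against 12.67, 12.65, 12.35, 11.51 and 12.75 in controls. Every phenobarbital liver lay below every control, and the difference was -1.94 ± 0.32, a fold of 0.261 (adjusted p = 2.19e-06, limma). On day 28 humanized phenobarbital livers had 9.26, 10.85, 10.68, 11.82 and 12.38, against 12.04, 12.58, 12.53 and 12.15 in controls. One phenobarbital liver lay within the control range, and the difference of -1.33 (adjusted p = 0.00484) became -0.90 (adjusted p = 0.108) without animal 6016, the lowest. On day 7 the phenobarbital livers at 11.29, 12.03, 11.07 and 11.28 were all below the controls at 12.18, 12.40, 12.28, 12.31 and 12.27, but the difference of -0.87 did not pass (adjusted p = 0.133). The fit on the compared groups alone gave that day-7 difference an adjusted p of 0.0117. The same fit gave the day-28 difference an adjusted p of 0.202, so that its call was lost. On day 91 the animals were split: phenobarbital livers had 9.84, 12.59, 12.24 and 11.53, against 12.53, 12.14, 12.64, 12.71 and 12.72 in controls, a difference of -1.0 (adjusted p = 0.119). The difference was -0.43 without animal 6021, -1.35 (adjusted p = 0.0217) without animal 6022 and -1.23 (adjusted p = 0.0480) without animal 6023.

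Hamp in wild type mice differed most on day 28. Phenobarbital livers had 11.86, 11.43, 12.17, 9.59 and 12.39, against 12.74, 12.97, 13.06, 12.78 and 12.78 in controls. All 5 phenobarbital livers lay below all 5 controls, and the difference was -1.38 ± 0.32, a fold of 0.385 (adjusted p = 0.00189, limma). It depended on animal 2019, the lowest liver, without which it was -0.90 (adjusted p = 0.0967), and the fit on the compared groups alone gave an adjusted p of 0.101. On day 14 the difference was -0.90 (adjusted p = 0.0822), with 1 control at 11.40 apart from the other 3, which lay between 12.57 and 12.79. Without that control, animal 1013, the difference was called at -1.21 (adjusted p = 0.0303), as it was at -1.10 (adjusted p = 0.0410) without phenobarbital animal 2011. Days 1, 7 and 91 gave -0.63, -0.60 and -0.44, none called. In the knockout the 5 dosing days gave -0.50, 0.25, -0.01, -0.15 and -0.38, none called.

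After the 4 weeks without dosing, Hamp in phenobarbital-group livers was 12.68, 12.89, 13.12 and 12.90 in the knockout, against 12.66, 12.70, 12.64, 12.28 and 12.72 in controls. In the humanized line it was 12.77, 13.27 and 13.21, against 12.84, 12.97, 12.60, 12.25 and 12.69 in controls. In wild type mice it was 13.24, 12.74, 12.50, 13.21 and 12.86, against 12.96, 12.89, 12.88, 12.79 and 12.70 in controls. The differences were 0.30, 0.42 and 0.07, and none passed (adjusted p = 0.937, 0.766 and 0.999, limma). In no genotype did a phenobarbital-group liver reach the lowest levels of its line seen during dosing.

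Hepatocytes are the cells that make hepcidin. Of 8 hepatocyte markers, 2 were higher and 0 lower with phenobarbital in the knockout, 0 higher and 4 lower in humanized mice, and 0 higher and 6 lower in wild type mice, against 19.6%, 32.4% and 31.5% of all tested genes called in either direction. Their mean level ranged from 13.00 to 13.44 in phenobarbital and 12.92 to 13.39 in control knockout livers, from 12.91 to 13.22 and 12.90 to 13.37 in humanized livers, and from 13.01 to 13.26 and 13.11 to 13.41 in wild type livers. The median difference of these markers was 0.006, -0.103 and -0.067 in the knockout, humanized and wild type lines. Their part in the Hamp result was not tested, and in whole liver fewer cells of a type and less RNA per cell cannot be told apart.

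Hamp2 is the neighbouring duplicate of Hamp and, unlike it, is not known to lower plasma iron in mice. The starts of both genes are shown as a description. Whether they bear on the different changes of the Hamp and Hamp2 probe sets was not tested. The sequences are the 250 bases upstream of the annotated start from RefSeq (GRCm38.p6), both on the minus strand, Hamp at chr7:30944030-30944279 and Hamp2 at chr7:30924182-30924431. Capitals mark GGCGCC, the core of a known BMP-responsive element, and TTCNNNGAA, the core that STAT factors recognise; both read the same on either strand.
Hamp: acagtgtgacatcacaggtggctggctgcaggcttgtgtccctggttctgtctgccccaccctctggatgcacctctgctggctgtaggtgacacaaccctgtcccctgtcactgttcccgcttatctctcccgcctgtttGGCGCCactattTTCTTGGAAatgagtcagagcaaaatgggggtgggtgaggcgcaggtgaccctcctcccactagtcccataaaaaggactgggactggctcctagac
Hamp2: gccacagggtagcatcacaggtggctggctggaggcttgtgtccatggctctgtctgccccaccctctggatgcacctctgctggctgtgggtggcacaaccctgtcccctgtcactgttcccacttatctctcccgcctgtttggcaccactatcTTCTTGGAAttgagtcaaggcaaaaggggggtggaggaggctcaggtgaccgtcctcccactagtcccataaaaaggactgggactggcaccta
The windows were identical at 227 aligned positions, with 20 mismatches and 6 gap positions, an identity of 89.7%. GGCGCC lay 109 bases before the start of Hamp and was not in the Hamp2 window, where the aligned letters carry the substitution G145A (counted from 1 at the 5′ end of the Hamp window, Hamp base first). TTCNNNGAA lay 97 bases before the start of Hamp and 94 before that of Hamp2. GGCGCC occurred in 9.6% of 32851 promoter windows of this length and TTCNNNGAA in 7.0%. Promoters were on hand for Hamp, Hamp2, Bmp6, Tfrc, Tfr2 and Hfe and of these GGCGCC occurred also in 1 of the 2 Tfrc windows. A match of letters is a description and not a bound site.

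Hamp2 (1436643_x_at; chromosome 7, 30922372 to 30924181) rose in humanized mice by 0.44 ± 0.14 over dosing (adjusted p = 0.00848, limma). The dosing mean was 0.32 in the knockout (adjusted p = 0.102) and -0.11 in wild type (adjusted p = 0.586). The largest day was day 91 in humanized mice, where phenobarbital livers had 12.11, 12.17, 12.24 and 12.08, against 10.79, 10.81, 11.13, 10.86 and 10.53 in controls. The groups did not overlap and differed by 1.32 ± 0.32 (adjusted p = 0.00549). On day 28 the humanized groups did not overlap either, at 11.89, 11.73, 11.56, 11.53 and 11.63 with phenobarbital, against 10.90, 10.65, 11.01 and 10.96 in controls, but the difference of 0.79 was not called (adjusted p = 0.117). Wild type livers on that day had a far wider range with phenobarbital (11.13, 11.59, 10.51, 8.78 and 12.18) than in controls (10.85, 10.86, 10.71, 10.84 and 10.34), and the liver at 8.78 was animal 2019, which also had the lowest wild type Hamp. The probe set may hybridise with transcripts of other genes, and Hamp and Hamp2 are near-identical copies, so that signal divided between them is uncertain. A second Hamp probe set gave -0.16, -1.06 and -0.79 in knockout, humanized and wild type mice, and a second Hamp2 probe set lay above the median of no array.

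The per-animal difference Hamp minus Hamp2 summarises how the probe sets diverged; only its change between arms has meaning, and it was chosen after its values were seen. It averaged 0.88 ± 0.548 in phenobarbital and 1.378 ± 0.543 in control knockout livers (SD, n = 24 and 22). In humanized livers it averaged -0.233 ± 1.071 with phenobarbital and 1.345 ± 0.468 without (n = 23 and 24). In wild type livers it averaged 1.053 ± 0.7 with phenobarbital and 1.755 ± 0.452 without (n = 24 and 22). The difference between arms, averaged over days, was -0.48, -1.59 and -0.68 in the 3 lines, and it was below 0 on 5 of 5, 5 of 5 and 4 of 5 dosing days.

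**Figure D3:**
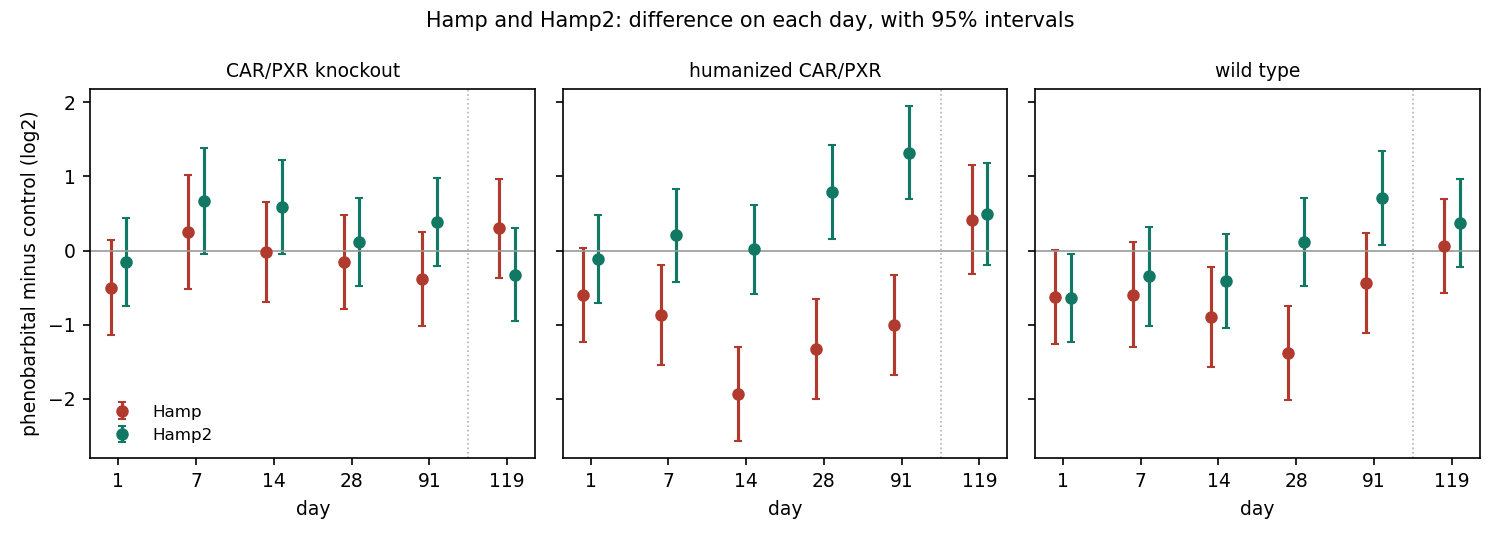
Phenobarbital minus control (y axis, log2) for Hamp and Hamp2 by day (x axis) in knockout, humanized and wild type mice, with 95% intervals. In humanized mice Hamp lies at -1.0 and Hamp2 at 1.32 on day 91.

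Bmp6 (1450759_at; chromosome 13, 38345716 to 38500314), the ligand that drives hepcidin, was dim, with a mean of 5.48 and 150 of 167 arrays above their median. On dosing days its lowest, median and highest levels were 5.11, 5.56 and 6.02 in phenobarbital and 5.12, 5.53 and 6.12 in control knockout livers. They were 4.88, 5.30 and 5.89 against 5.06, 5.49 and 5.78 in humanized livers, and 4.83, 5.29 and 5.71 against 4.97, 5.52 and 5.82 in wild type livers. The arms overlapped in all 3 lines, with the phenobarbital medians slightly lower in the humanized and wild type lines. Bmp6 fell by 0.15 in humanized mice (adjusted p = 0.0304, limma) and by 0.19 in wild type mice (adjusted p = 0.00367), and was 0.02 in the knockout (adjusted p = 0.841). The humanized call was lost when any 1 of 7 animals was left out (adjusted p up to 0.0836). The effects of knockout and wild type differed by 0.21 (adjusted p = 0.0538), and by 0.27 without the samples with pancreatic transcripts, which passed (adjusted p = 0.0291). Of 11 markers of sinusoidal endothelial cells, which make BMP6, 0 were called in the knockout, against 19.6% of all tested genes. Of these markers 3 were lower in humanized mice and 1 in wild type mice, against 32.4% and 31.5% of all tested genes. Their mean level ranged from 7.68 to 7.96 in phenobarbital and 7.52 to 7.98 in control knockout livers, 7.36 to 7.98 and 7.53 to 8.05 in humanized livers, and 7.52 to 7.94 and 7.57 to 8.06 in wild type livers; their part in the Bmp6 result was not tested.

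Id1 (1425895_a_at; chromosome 2, 152736251 to 152737410), a SMAD target that encodes an inhibitor of DNA binding, had on dosing days lowest, median and highest levels of 6.04, 6.85 and 8.38 in phenobarbital and 5.88, 6.72 and 8.20 in control knockout livers. They were 5.89, 6.27 and 6.86 against 5.88, 6.57 and 7.53 in humanized livers, and 5.99, 6.71 and 7.68 against 6.22, 7.02 and 8.10 in wild type livers. The arms overlapped throughout. Id1 fell by 0.35 ± 0.13 in wild type mice (adjusted p = 0.0215, limma), and the call was lost without control animal 1008 (adjusted p = 0.0551) and without the samples with pancreatic transcripts, where the difference was -0.15 (adjusted p = 0.507). The difference was -0.27 in humanized mice (adjusted p = 0.0857), or -0.31 without those samples (adjusted p = 0.0430), and 0.04 in the knockout (adjusted p = 0.862). On day 14 the wild type groups did not overlap, at 6.56, 6.13, 6.24, 6.42 and 6.10 with phenobarbital, against 6.79, 6.88, 6.57 and 6.61 in controls, yet the difference of -0.42 was not called (adjusted p = 0.396).

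Smad7 (1423389_at; chromosome 18, 75367365 to 75395935), a SMAD target that inhibits the pathway, was called on 1 day alone. In humanized mice on day 14 phenobarbital livers had 6.51, 6.46, 6.22, 6.61 and 6.16, against 6.82, 6.93, 6.93, 6.68 and 7.15 in controls. The groups did not overlap, and the difference was -0.51 (adjusted p = 0.0163, limma), on the same day as the largest Hamp difference. The call was lost without animal 6013, 6015 or 5015 (adjusted p = 0.0531, 0.0534 and 0.0674). It was also lost with the Smad7 probe set of largest variance, where the difference was -0.39 (adjusted p = 0.14). The dosing means were -0.03, -0.17 and -0.07 in knockout, humanized and wild type mice, and none was called (adjusted p = 0.811, 0.0516 and 0.514). The humanized mean lay at the threshold. It was called with repeated quantile normalization, a stricter filter on dim genes or the compared groups alone (adjusted p = 0.0413, 0.0485 and 0.0166, limma). Leaving out any 1 of 17 animals also gave a call, whereas a second Smad7 probe set gave -0.16 (adjusted p = 0.104).

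Tfrc (1452661_at; chromosome 16, 32608896 to 32632794) had the largest rise of the 9 genes. On dosing days its lowest, median and highest levels were 9.09, 9.82 and 10.14 in phenobarbital and 8.64, 9.31 and 10.16 in control knockout livers. They were 9.31, 10.65 and 11.09 with phenobarbital and 8.97, 9.49 and 10.08 without in humanized livers, and 8.78, 10.40 and 10.86 with phenobarbital and 8.28, 9.07 and 10.02 without in wild type livers. The phenobarbital medians of the humanized and wild type lines lay above the highest control of their own line, whereas the knockout arms overlapped widely. The dosing means were 0.36 ± 0.10 in the knockout, a fold of 1.286 (adjusted p = 0.00694, limma), 1.06 ± 0.10 in humanized mice, a fold of 2.089 (adjusted p = 7.1e-17), and 1.23 ± 0.10 in wild type mice, a fold of 2.347 (adjusted p = 1.37e-20). The effect in the knockout was smaller than in wild type by -0.87 ± 0.15 (adjusted p = 1.81e-06), while that in humanized mice differed from wild type by -0.17 (adjusted p = 0.68).

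On day 14, the largest Tfrc difference in wild type mice, phenobarbital livers had 10.04, 10.46, 10.86, 10.61 and 10.31, against 9.46, 8.28, 8.43 and 8.70 in controls. The groups did not overlap, and the difference was 1.74 ± 0.23, a fold of 3.334 (adjusted p = 3.49e-09, limma). In humanized mice on that day 4 of 5 phenobarbital livers lay between 11.06 and 11.09 and the fifth at 10.55, against 9.52, 9.71, 9.49, 9.95 and 9.39 in controls, a difference of 1.36 (adjusted p = 1.17e-06). In the knockout on that day phenobarbital livers had 10.03, 9.96, 9.79, 10.14 and 9.09, against 9.39, 8.93, 9.37 and 9.26 in controls. The groups overlapped through 1 phenobarbital liver, and the difference of 0.57 was not called (adjusted p = 0.293). Tfrc was called on each of the 5 dosing days in wild type mice and on days 7, 14, 28 and 91 in humanized mice, and on no single day in the knockout. The humanized day 91 call (0.85, adjusted p = 0.0232) was lost without animal 6021 (0.61, adjusted p = 0.386) or 6025 (0.62, adjusted p = 0.288), the livers at 10.99 and 10.98 beside others at 9.85 and 9.31, and also without control animal 5023 or 5025 (adjusted p = 0.0779 and 0.0787). On that day animal 6021 also had the lowest Hamp of its group.

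**Figure D4:**
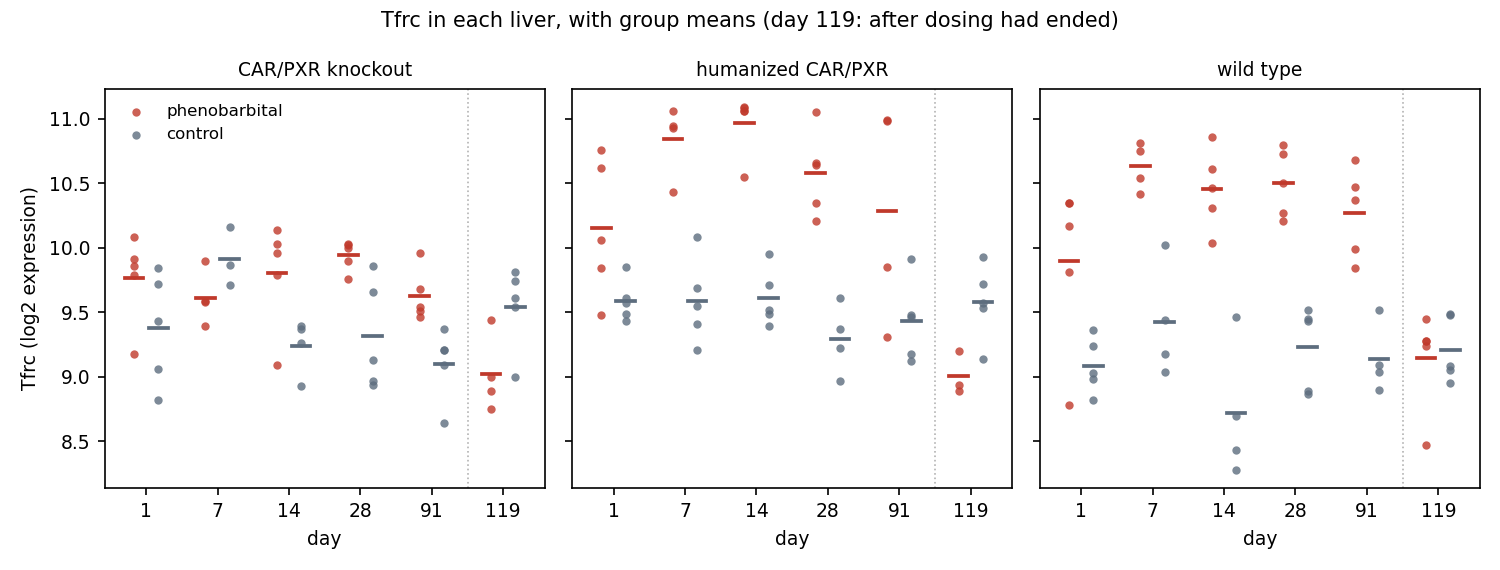
Tfrc level (y axis, log2) of every liver by day (x axis) in knockout, humanized and wild type mice; red points are phenobarbital livers, grey points controls, and horizontal bars group means. Phenobarbital livers lie above all controls on days 7, 14, 28 and 91 in wild type and on days 7, 14 and 28 in humanized mice, and in the knockout on day 91.

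On day 119 Tfrc was no longer higher in the phenobarbital groups. Phenobarbital-group livers had 9.44, 8.89, 9.00 and 8.75 in the knockout, against 9.54, 9.81, 9.00, 9.61 and 9.74 in controls. In humanized mice they had 8.89, 8.94 and 9.20, against 9.72, 9.57, 9.14, 9.93 and 9.53 in controls. In wild type mice they had 9.28, 9.45, 8.47, 9.28 and 9.24, against 9.49, 9.05, 9.08, 8.95 and 9.48 in controls. The differences were -0.52, -0.57 and -0.07, and none passed (adjusted p = 0.611, 0.417 and 0.999, limma). The mean over all Tfrc probe sets gave 0.12 for dosing in the knockout, which was not called (adjusted p = 0.0864). A pair of further Tfrc probe sets, above the median of no array, gave 0.05 and -0.05 in the knockout, 0.16 and 0.21 in humanized and 0.33 and 0.35 in wild type mice. Of 7 transcripts of red cell precursors, which express much Tfrc, only Alas2, the erythroid enzyme of haem synthesis, was tested, and it fell by 0.12 in the knockout and by 0.30 in humanized mice and was 0.004 in wild type mice. Another 3 were too dim to test and 3 were not analysed here.

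Tfr2 and Hfe encode the hepatocyte sensors of transferrin iron, and both varied little between animals. Tfr2 (1459994_x_at; chromosome 5, 137569822 to 137588081) had lowest, median and highest levels of 11.97, 12.13 and 12.32 in phenobarbital and 12.00, 12.12 and 12.36 in control knockout livers on dosing days. They were 11.80, 12.00 and 12.18 against 12.02, 12.11 and 12.47 in humanized livers, and 11.70, 11.96 and 12.22 against 12.01, 12.09 and 12.26 in wild type livers. The arms overlapped in all 3 lines, with the phenobarbital median below the lowest control in the humanized and wild type lines. Tfr2 fell by 0.14 in humanized mice (adjusted p = 2.28e-06, limma) and by 0.15 in wild type mice (adjusted p = 1.41e-06), and was -0.01 in the knockout (adjusted p = 0.865). The knockout and wild type effects differed by 0.14 (adjusted p = 0.00381). A second Tfr2 probe set gave -0.01, -0.10 and -0.11. With the probe set of largest variance the knockout and wild type effects differed by 0.10, which was not called (adjusted p = 0.146).

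Hfe (1422645_at; chromosome 13, 23702034 to 23710854) rose in all 3 lines, by 0.08 in the knockout (adjusted p = 0.0295, limma), 0.25 in humanized mice (adjusted p = 8.77e-14) and 0.20 in wild type mice (adjusted p = 1.86e-09). The effect was smaller in the knockout than in wild type by -0.12 (adjusted p = 0.0286), a call lost without wild type control animal 1022 (adjusted p = 0.0569) and without the samples with pancreatic transcripts (adjusted p = 0.0977). The knockout rise itself was lost when any 1 of 6 animals was left out (adjusted p up to 0.0785). On day 14 humanized phenobarbital livers had 9.87, 9.95, 9.99, 10.06 and 9.94, against 9.63, 9.51, 9.57, 9.70 and 9.58 in controls. The groups did not overlap, and they differed by 0.36 (adjusted p = 1.1e-06). A second Hfe probe set gave 0.09, 0.37 and 0.16 in knockout, humanized and wild type mice. With the probe set of largest variance the knockout and wild type effects differed by -0.06, which was not called (adjusted p = 0.582).

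Slc40a1 (1417061_at; chromosome 1, 45908070 to 45926532), the iron exporter on which hepcidin acts, fell by 0.16 in the knockout (adjusted p = 0.018, limma) and by 0.15 in wild type mice (adjusted p = 0.0162), and was -0.05 in humanized mice (adjusted p = 0.468). On dosing days its lowest, median and highest levels were 10.85, 11.14 and 11.48 in phenobarbital and 10.72, 11.31 and 11.68 in control knockout livers. They were 10.80, 11.11 and 11.60 against 10.94, 11.19 and 11.47 in humanized livers, and 10.55, 10.96 and 11.48 against 10.75, 11.14 and 11.36 in wild type livers, with wide overlap in each line. In wild type mice on day 14 phenobarbital livers had 10.82, 10.80, 10.78, 10.93 and 10.55, against 11.11, 11.28, 11.12 and 11.30 in controls. These groups did not overlap, and the difference was -0.43 (adjusted p = 0.00719), or -0.37 without the samples with pancreatic transcripts (adjusted p = 0.132). The knockout days 28 and 91 gave -0.33 (adjusted p = 0.0494) and -0.38 (adjusted p = 0.0295), and each of these calls was lost without several single animals, the near-identical 4019 and 4024 among them (adjusted p = 0.122 and 0.118). The knockout mean was -0.13 without control animal 3009 (adjusted p = 0.0750). The wild type mean was -0.13 without the samples with pancreatic transcripts (adjusted p = 0.107), and a second probe set gave -0.18, -0.09 and -0.05 in knockout, humanized and wild type mice (adjusted p = 0.0368, 0.317 and 0.643). Kupffer cells are macrophages that export much iron through ferroportin. Of 11 of their markers, none was called in the knockout or humanized mice, against 19.6% and 32.4% of all tested genes. Of these markers 1 was lower in wild type mice, against 31.5% of all tested genes. Their mean level ranged from 7.80 to 8.70 in phenobarbital and 7.59 to 8.68 in control knockout livers, 7.76 to 8.53 and 7.85 to 8.57 in humanized livers, and 7.58 to 8.57 and 7.76 to 9.00 in wild type livers.

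On each single day fewer of the 9 genes were called than for the dosing mean of the same line. In the knockout 0 of 9 genes were called on days 1, 7 and 14, 1 on day 28 and 1 on day 91 (Slc40a1 each time), and 0 on day 119, against 8.08%, 0.0158%, 0.325%, 5.16%, 3.45% and 0.111% of all tested genes. In humanized mice 2 were called on day 1 (Tfr2, Hfe), 2 on day 7 (Tfrc, Hfe), 4 on day 14 (Hamp, Smad7, Tfrc, Hfe), 3 on day 28 (Hamp, Tfrc, Hfe), 3 on day 91 (Hamp2, Tfrc, Tfr2) and 0 on day 119. The shares of all genes on those days were 11.7%, 4.84%, 11.9%, 7.7%, 2.19% and 0.214%. In wild type mice 3 were called on day 1 (Tfrc, Tfr2, Hfe), 1 on day 7 (Tfrc), 3 on day 14 (Tfrc, Slc40a1, Hfe), 2 on day 28 (Hamp, Tfrc), 2 on day 91 (Tfrc, Hfe) and 0 on day 119. The shares of all genes were 12%, 2.72%, 8.79%, 5.55%, 2.13% and 0.0238%. The Hfe calls on days 1 and 7 in humanized mice and on days 14 and 91 in wild type mice, and the Tfr2 calls on day 91 in humanized and day 1 in wild type mice, were each lost without some single animals (highest adjusted p = 0.332, for Hfe on wild type day 91 without control animal 1022, and 0.335, for Tfr2 on humanized day 91 without control animal 5023). Without the samples with pancreatic transcripts, the 3 wild type day 1 calls were lost (adjusted p = 0.286 for Tfrc, 0.326 for Tfr2 and 0.217 for Hfe). The differences were then 0.69 for Tfrc, -0.17 for Tfr2 and 0.20 for Hfe, beside 0.81, -0.19 and 0.22 with all samples. The Hfe difference on wild type day 1 (0.22) was -0.022 with its probe set of largest variance. A joint test of whether the phenobarbital effect changed between the 5 dosing days called none of the 9 genes in any line, against 0.753%, 1.35% and 0.586% of all genes in the knockout, humanized and wild type lines. The lowest adjusted p values in that test were 0.219 for Slc40a1 in the knockout, 0.181 for Hamp2 in humanized mice and 0.496 for Hamp2 in wild type mice.

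The phenobarbital effect of 4 of 9 genes differed between knockout and wild type (Hamp and Tfr2 less negative, Tfrc and Hfe less positive in the knockout), against 13.4% of all tested genes. The Tfr2 and Hfe calls were lost with the probe set of largest variance (adjusted p = 0.146 and 0.582, limma). The Hamp and Hfe calls were lost without the samples with pancreatic transcripts (adjusted p = 0.242 and 0.0977). None of the 9 genes differed between humanized and wild type mice, against 1.88% of all genes. For Hamp that difference was -0.36 with a 95% interval of -0.776 to 0.063 (adjusted p = 0.481, limma), so a larger fall in humanized mice was not shown. For Hfe the difference between humanized and wild type effects was called with other choices of probe set. It was 0.21 with the probe set of largest variance and 0.13 with the mean of all probe sets (adjusted p = 0.0221 and 0.041, limma).

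Among untreated livers, averaged over the 6 days, 2 of 9 genes differed between knockout and wild type, against 22.4% of all tested genes. Tfrc was higher by 0.28 (adjusted p = 0.0248, limma) and Slc40a1 by 0.19 (adjusted p = 0.00104). Of the 11 Kupffer cell markers, 6 were higher in knockout than in wild type controls, with mean levels on dosing days of 7.59 to 8.68 in knockout and 7.76 to 9.00 in wild type control livers, and their part in the Slc40a1 difference was not tested. In humanized controls 2 of 9 differed from wild type, against 28.1% of all genes: Id1 was lower, at -0.48 (adjusted p = 0.000498), and Tfrc higher, at 0.38 (adjusted p = 0.000866). All 7 pancreatic acinar transcripts tested were lower in humanized than in wild type controls, with mean levels on dosing days of 4.91 to 6.76 in humanized and 4.96 to 10.47 in wild type control livers. Without the 26 samples with pancreatic transcripts the humanized control differences were -0.37 for Id1 (adjusted p = 0.0241) and 0.48 for Tfrc (adjusted p = 0.00022). Hamp did not pass in either line, at -0.05 in knockout and -0.12 in humanized controls. Between day 119 and day 1, controls of all lines differed in Bmp6 by 0.28 (adjusted p = 0.000603) and in Hfe by 0.12 (adjusted p = 0.00299, or 0.0797 without the samples with pancreatic transcripts; the Hfe probe set of largest variance gave -0.0079), which is 2 of 9 genes against 28% of all genes.

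Hamp was among the more variable transcripts within groups, with a pooled SD of 0.516, larger than in 98.9% of tested genes. Hamp2 had 0.483 (98.7%), Id1 0.429 (98.3%) and Tfrc 0.352 (97.2%), whereas Hfe had 0.092 (12.7%) and Tfr2 0.088. Smad7, Bmp6 and Slc40a1 lay between, at 0.246, 0.189 and 0.169. By this pooled SD the hormone, its paralog and a SMAD target varied most between animals treated alike, and the transferrin sensors least. The spread of Hamp was not equal in the arms. Over dosing days, differences between days included, its SD with phenobarbital was 0.438, 0.958 and 0.736 in the knockout, humanized and wild type lines. In controls it was 0.395, 0.317 and 0.362. The model behind the calls assumes that groups vary alike.

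Variation between animals of the same group was compared over 10 pairs of Hamp, Hamp2, Bmp6, Id1 and Smad7, using each value minus its group mean (n = 166, 100000 permutations within groups, two-sided, Benjamini-Hochberg over the 10 pairs). The SMAD targets Id1 and Smad7 moved together most closely, with Pearson's r = 0.712 and Spearman's rho = 0.624 (permutation p = 1e-05 for each, the smallest possible, adjusted p = 5e-05 and 0.0001). Without the 2 farthest samples r was 0.68, and it was 0.796, 0.533 and 0.78 within the knockout, humanized and wild type lines. Hamp followed Id1 with r = 0.333 and rho = 0.369 (permutation p = 1e-05 and 2e-05, adjusted 5e-05 and 0.0001), and r was 0.332 without the 2 farthest samples. Hamp followed Smad7 with r = 0.328 and rho = 0.359 (permutation p = 6e-05 and 4e-05, adjusted 0.0002 and 0.000133), with 0.344 without those samples. Within lines these values were 0.346, 0.382 and 0.292 for Id1 and 0.273, 0.474 and 0.278 for Smad7. Hamp and its ligand gene Bmp6 had r = 0.166 and rho = 0.093, which did not pass (permutation p = 0.0871 and 0.279, adjusted 0.124 and 0.31). The correlations of the 10 pairs were not repeated without the samples with pancreatic transcripts.

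**Figure D5:**
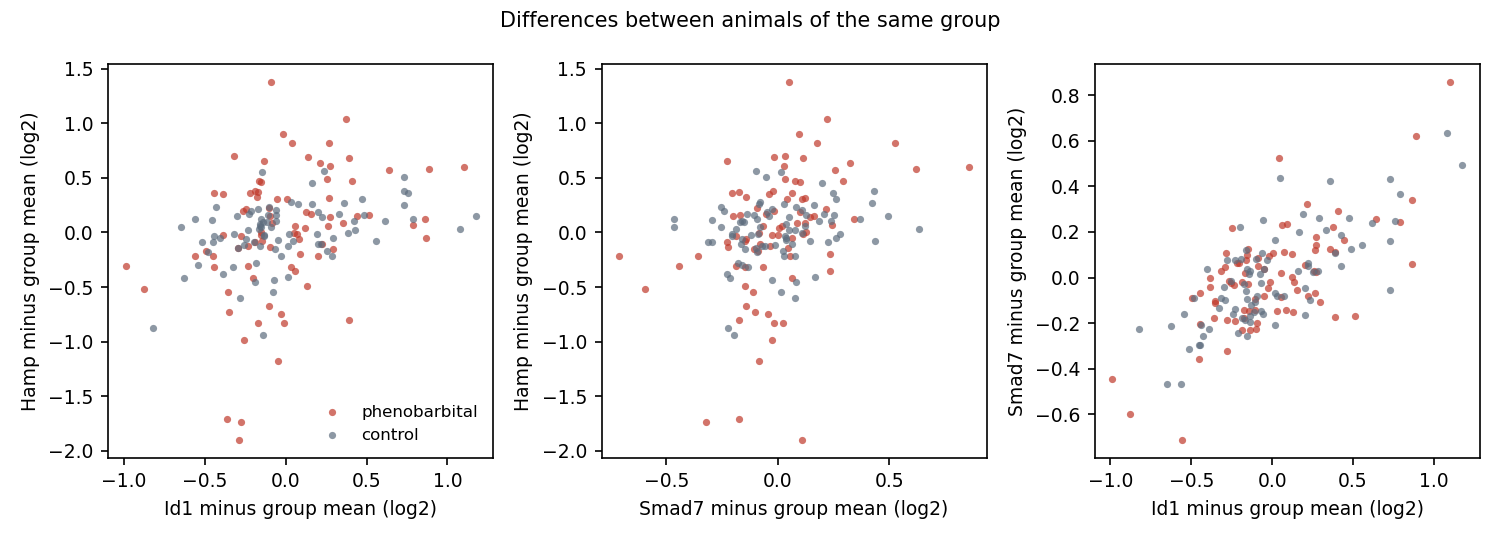
Values minus group means (both axes, log2) of Hamp against Id1, Hamp against Smad7 and Smad7 against Id1; each of the 166 points is 1 sample. The cloud is narrowest for Smad7 against Id1 (r = 0.712) and wider for Hamp against either (r = 0.333 and 0.328).

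Hamp and Hamp2 had r = 0.335 (permutation p = 0.00055, adjusted 0.00137) but rho = 0.182 (permutation p = 0.0343, adjusted 0.0686), and r was 0.278, 0.063 and 0.615 within the knockout, humanized and wild type lines. Without the 2 farthest samples r was 0.271, so the relation rested in part on single livers. Hamp2 and Id1 had r = 0.238 and rho = 0.251 (permutation p = 0.00231 and 0.00279, adjusted 0.00462 and 0.00697). The other 4 pairs had r between -0.03 and 0.175, and none passed after adjustment. As a description with no test, Tfrc ran opposite to Hamp, with r = -0.462 over the 166 values minus group means and -0.874 over the 36 group means, which share the phenobarbital and control arms.

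Over the 36 group means the transcripts most like Hamp were Ppara (r = 0.873), the nuclear receptor of fatty acid oxidation, Apoa5 (0.855), an apolipoprotein that lowers plasma triglycerides, Polg (0.847), the mitochondrial DNA polymerase, Ccdc157 (0.847) and Nectin3 (0.843), a cell adhesion protein. Over the 166 values minus group means they were Apoa5 (0.572), Id3 (0.511), a SMAD target related to Id1, Sec14l4 (0.492), Fgfr4 (0.416), the hepatocyte FGF receptor of bile acid control, and Txndc15 (0.411). Apoa5 was the transcript on both lists. By the same measure over group means Smad7 ranked 57, Tfr2 127, Id1 364, Bmp6 462 and Hamp2 7455 among all tested genes, which is a description and carries no test.

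Of 24 further genes of iron handling 19 were tested, with 2 higher and 3 lower in the knockout, 4 higher and 5 lower in humanized and 3 higher and 5 lower in wild type mice. Their medians were -0.023, -0.022 and -0.018, and the shares called stand beside the 19.6%, 32.4% and 31.5% of all genes. Scara5, a ferritin receptor, fell by 0.65, 0.80 and 0.53 in the knockout, humanized and wild type lines (adjusted p = 0.00158, 1.5e-05 and 0.00621, limma). Slc25a37 (mitoferrin), the mitochondrial iron importer, rose by 0.11, 0.39 and 0.50 (adjusted p = 0.0382, 2.34e-16 and 6.1e-23). Slc39a14, a zinc and iron importer, fell by 0.20 in the knockout and by 0.29 in humanized mice (adjusted p = 0.00144 and 3.45e-07), and was -0.03 in wild type mice. Steap3, an endosomal ferrireductase, fell by 0.15 in wild type mice (adjusted p = 0.0243). Fbxl5, which targets an iron regulatory protein for degradation, rose by 0.10 in humanized and by 0.13 in wild type mice (adjusted p = 0.0269 and 0.00288). Flvcr1, a haem exporter, rose by 0.19 in humanized mice (adjusted p = 0.00014), and Pcbp2, an iron chaperone, fell by 0.17, 0.10 and 0.11 in the knockout, humanized and wild type lines (adjusted p = 1.23e-05, 0.00459 and 0.00212).

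Of 29 further genes of BMP and SMAD signalling 24 were tested, with 3 higher and 4 lower in the knockout, 3 higher and 8 lower in humanized and 4 higher and 8 lower in wild type mice, against 19.6%, 32.4% and 31.5% of all tested genes, and with medians of -0.008, -0.055 and -0.069. Tmprss6, the protease that cleaves the BMP co-receptor hemojuvelin, fell by 0.14 in humanized and by 0.16 in wild type mice (adjusted p = 7.41e-09 and 4.47e-10, limma) and was 0.01 in the knockout (adjusted p = 0.744). Its knockout and wild type effects differed by 0.17 (adjusted p = 5.84e-06). Hjv, hemojuvelin itself, rose by 0.17, 0.27 and 0.15 in the knockout, humanized and wild type lines (adjusted p = 0.00081, 4.03e-09 and 0.000766). The type II receptor Bmpr2 fell by 0.16, 0.21 and 0.13 (adjusted p = 1.33e-06, 6e-12 and 2.8e-05). The decoy receptor Bambi fell by 0.25 in humanized and by 0.27 in wild type mice (adjusted p = 2.66e-05 and 5.33e-06). Bmp2, another endothelial ligand of this pathway, fell by 0.22 in humanized mice (adjusted p = 0.00567), and the SMAD target Atoh8 fell by 0.17 in humanized and by 0.18 in wild type mice (adjusted p = 0.0298 and 0.0249). Fst, the activin antagonist follistatin, rose by 0.45 in wild type mice (adjusted p = 5.4e-05). In the knockout Bmp4, a ligand, rose by 0.22 and Smad6, an inhibitory SMAD, by 0.17 (adjusted p = 0.00895 and 0.0305).

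Interleukin-6 raises Hamp through STAT3 together with the acute phase genes. Of 23 acute phase and interleukin-6 genes 22 were tested, with 3 higher and 4 lower in the knockout, 3 higher and 8 lower in humanized and 5 higher and 8 lower in wild type mice, against 19.6%, 32.4% and 31.5% of all tested genes, and with medians of 0.002, -0.136 and -0.068. The plasma carrier orosomucoid gene Orm3 rose by 0.37, 1.49 and 1.26 in the knockout, humanized and wild type lines (adjusted p = 0.000208, 1.69e-37 and 1.34e-30, limma), and Orm2 by 0.63, 1.13 and 1.14 (adjusted p = 0.0013, 3.73e-10 and 4.89e-10). Il6ra, the receptor that binds interleukin-6, fell by 0.53, 0.75 and 0.59 (adjusted p = 7.33e-05, 9.07e-10 and 1.51e-06). Itih3, a plasma protease inhibitor chain, fell by 0.29 in humanized and by 0.35 in wild type mice (adjusted p = 5.46e-10 and 2.76e-13), and the metallothionein Mt2 fell by 0.36 in the knockout (adjusted p = 0.0347). The orosomucoid genes belong to a multigene family of near-identical copies, so that signal divided between them is uncertain.

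Of 11 stellate cell markers 0 were called in the knockout, 3 were lower in humanized and 5 lower in wild type mice. The shares of all tested genes called in either direction were 19.6%, 32.4% and 31.5%. Mean levels of the stellate markers were 7.42 to 7.76 in phenobarbital and 7.36 to 7.85 in control knockout livers. They were 7.24 to 7.68 and 7.29 to 7.77 in humanized livers, and 7.33 to 7.68 and 7.36 to 7.89 in wild type livers. None of 7 pancreatic acinar transcripts tested was called for phenobarbital in any line. Of 4 B and plasma cell transcripts tested, Ighm was higher with phenobarbital in humanized and wild type mice and none was called in the knockout. The part of these cells in the iron genes' results was not tested.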

How the data were processed

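Per the submitters' processing notes the authors made the deposited values with RMA, which corrects background, normalizes arrays by quantiles and summarises probe sets on a log2 scale; the sources used here do not give its version. These deposited log2 values ran from 2.11 to 15.07, and array medians from 5.146 to 5.231. Replicates are separate animals per the labels, and their number limits the precision. Of 45101 probe sets, 34958 carried 1 gene symbol, 932 several and 9211 none. Genes entered the test if 3 or more arrays exceeded their array median. Groups were compared with limma 3.58.1 (lmFit, eBayes) in R 4.3.3, two-sided, in 1 model of 36 group means over 166 samples with 130 residual degrees of freedom, which assumes groups vary alike. Arrays 6026 and 6030 were averaged (SD of their difference 0.0613, that of 4019 and 4024 0.056, against at least 0.1221 in other pairs of 13861). P-values were adjusted by Benjamini-Hochberg over all 12622 genes within a contrast. Correlations and promoters used Python 3.11.15, numpy 2.4.6 and Biopython 1.88. The method was tested on simulated data in which all groups varied alike, so that test does not cover the unequal spread of Hamp between arms. Alternatives changed the samples, normalization, filters, probe sets and prior and left out each animal; leaving out the samples with pancreatic transcripts and the second Hamp probe set were chosen after seeing the data. Named genes were the members, up to 4 called genes of each list and line with the largest dosing-mean change, the 5 genes most like Hamp by either measure, and the receptor and Cyp2b10 checks. The members and lists were chosen with earlier results of these data known. The promoter of Smad7 is not reported here.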

Additional observations from a re-analysis of the deposited data

Results flagged for a closer look

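Over the 9 genes, 306 combinations of a gene and a group of 4 or 5 animals were examined, and in 21 of them 1 liver lay far from the others; chance gives about 1 in 20. For Hamp these were wild type control 1013 on day 14 (11.40, nearest 12.57), knockout phenobarbital 4003 (11.32, nearest 12.22) and control 3003 (12.23, nearest 12.71) on day 1, and knockout control 3029 on day 119 (12.28, nearest 12.64). For Hamp2 they were humanized phenobarbital 6003 on day 1 (10.70), humanized control 5027 on day 119 (11.93), knockout control 3017 on day 28 (11.59) and wild type control 1020 on day 28 (10.34). Humanized phenobarbital 6003 was also low in Bmp6 (4.93), as was wild type control 1006 on day 7 (5.45). Wild type control 1028 on day 119 was high in both SMAD targets, Id1 (8.22, nearest 7.05) and Smad7 (7.52, nearest 6.81), and Id1 was also high in knockout controls 3023 on day 91 (8.20) and 3030 on day 119 (7.57). Tfrc was low in humanized phenobarbital 6015 on day 14 (10.55) and in wild type 2028 of the phenobarbital arm on day 119 (8.47). Tfr2 was high in humanized phenobarbital 6010 on day 7 (12.18), humanized controls 5023 on day 91 (12.47) and 5026 on day 119 (12.20), and wild type control 1004 on day 1 (12.19). Slc40a1 was low in humanized control 5021 on day 91 (11.15).

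The phenobarbital effect over dosing differed between knockout and wild type, by the interaction test, for Hamp (0.63), Tfrc (-0.87), Tfr2 (0.14) and Hfe (-0.12). With the probe set of largest variance Tfr2 (0.10) and Hfe (-0.06) were not called. Without the samples with pancreatic transcripts Hamp (0.49) and Hfe (-0.11) were not called.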

How the results depend on the processing

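Of 123 gene and contrast values, 119 kept their side of the threshold without animals 4019 and 4024, and 111 with the mean of all probe sets. The count was 108 with the probe set of largest variance, 104 with the fit on the compared groups alone and 108 without the samples with pancreatic transcripts. Direction was compared only for values called in either fit, so uncalled values that changed sign count as kept. All 123 kept their side of the threshold with 6026 and 6030 separate and with a trend and robust prior. Of 4651 values that left out 1 animal, 69 lost and 53 gained a call, and 0 reversed among those called in either fit. Uncalled values did change sign, such as Hamp on wild type day 119 (0.07), which ranged from -0.02 to 0.17. With the probe set of largest variance Hfe reversed in day 119 against day 1 controls (-0.0079) and on wild type day 1 (-0.022). The members called between knockout and wild type effects were 4, and 2 with the largest variance, where Tfr2 and Hfe were lost. Between humanized and wild type effects they were 0, and 1 (Hfe) with the mean of all probe sets or the largest variance. For the test across days in humanized mice they were likewise 0, and 1 with either. Between day 119 and day 1 controls they were 2, and 1 with the mean, the largest variance or without pancreatic samples. Wild type single-day calls were 11, and 5 with the compared groups alone and 7 without pancreatic samples. Knockout single-day calls were 2, and 1 with no filter on dim genes, 4 with the mean, and 0 with the largest variance, without 4019 and 4024 or with the compared groups alone; leaving out 1 animal gave 0 (without 4023) to 3 (without 3002). Correlations within lines (knockout, humanized, wild type) were 0.796, 0.533 and 0.78 for Id1 and Smad7, 0.474 for Hamp and Smad7 in humanized mice, and 0.063 and 0.615 for Hamp and Hamp2 in humanized and wild type mice. The cause of these changes was not tested. Dim Bmp6 values limit its precision.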
